A study of Rattus norvegicus with 105 samples.

Results

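The comparison of medium clozapine with vehicle rested on 18 of the 105 rat arrays of the series, all 18 of frontal cortex RNA, 9 labelled with the medium level of clozapine and 9 labelled vehicle. They were taken by the description given to each array, and all 31042 probe sets other than controls were read on every one. Clozapine is an antipsychotic drug of the atypical class, and the vehicle arrays are the controls of the same neuroleptic experiment. The series title says that the neuroleptics were given chronically, but the labels give the dose levels as words only, without amounts, duration, strain, age or the time between the last dose and the collection of tissue. Low and high clozapine (10 and 8 arrays) and low, medium and high haloperidol (9 arrays each) complete the 63 arrays of the experiment. Whether the arrays stand for different animals is not in the labels, and the p-values thus measure only the spread between these arrays, which may be technical.

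Clozapine binds many receptors, among them serotonin, dopamine, adrenergic, muscarinic and histamine receptors, and is known for weaker blockade of D2 dopamine receptors than haloperidol, a typical antipsychotic. Immediate early genes such as Fos, Arc and Egr1 are transcribed within minutes of strong synaptic input or receptor signalling in cortical neurons, without new protein synthesis. They encode transcription factors, which then act on later genes, and effectors, which act at synapses, and their transcripts are short-lived. The serum response factor at CArG boxes and the factor CREB at cAMP response elements (CRE) are textbook routes from calcium and MAP kinase signals to these genes.

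Each value was a log2 intensity after quantile normalisation across the 63 arrays of the experiment, so a difference of 1 is a doubling of intensity. The 18 arrays had median deposited intensities of 793.2 to 885.8, each correlated with the other arrays of the experiment at 0.967 to 0.978 on average, and 0 pairs of arrays held identical values. All 16 measured members of a list of cortical projection neuron markers were bright enough to be tested, among them the glutamate transporter Slc17a7 and the kinase Camk2a. The array titles carry running sample numbers, and runs of them were set apart as blocks. Medium clozapine and vehicle each had 2, 2 and 5 arrays in blocks 1, 2 and 3, so the groups were balanced over them. Blocks held 17.1% of the first principal component of the 18 arrays, and the groups held 9.78%. These shares cannot be ranked, since 3 blocks take up more of a component by chance than 2 groups. The labels do not say whether the blocks were processed apart.

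The called differences between medium clozapine and vehicle were in activity-regulated genes. Of 18625 probe sets tested, 4 rose and 0 fell (limma, Benjamini-Hochberg adjusted p under 0.05), which is 0.0215% of those tested. The 4 measured 3 genes, the transcription factor Fos, the synaptic effector Arc and the postsynaptic scaffold Homer1, the last on 2 of its 5 probe sets, named A (the brighter of the 2) and B here. Across all probe sets 756 (4.06%) had an unadjusted p under 0.05, 382 higher (2.05%) and 374 lower (2.01%), and the median difference was 0.0019. The median standard error (SE) of a difference was 0.10 on the log2 scale. With blocks as a term in the fit the same 4 passed and 4 others joined them, 3 higher (Pdp1, Stt3b and Lsm11) and 1 lower (a probe set of Nr1d2), so that 0.0376% rose and 0.00537% fell, 0.043% in all. In that fit 1308 probe sets (7.02%) had an unadjusted p under 0.05. With 1 block left out at a time, an alternative chosen after seeing the data, the count was 5 without block 1, 0 without block 2 and 0 without block 3, with 405 and 590 probe sets at an unadjusted p under 0.05 in those last fits by limma. Fos was then at 1.77 and 2.11, Arc at 1.13 and 1.63, and the called Homer1 probe sets at 0.96 and 1.28 (B) and at 0.82 and 0.67 (A) without blocks 2 and 3.

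**Figure D1:**
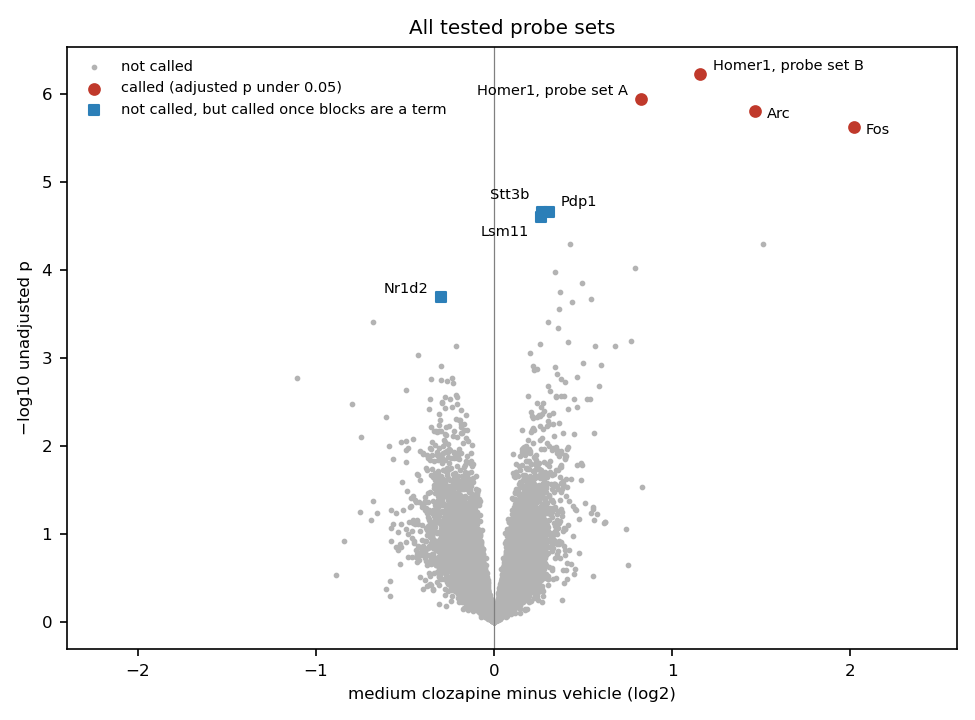
Each point is 1 of 18625 probe sets, with the log2 difference of medium clozapine minus vehicle on the horizontal axis and the negative log10 of the unadjusted p on the vertical axis. The 4 called probe sets (circles) lie to the right, from 0.83 to 2.02, and the 4 not called here but called with blocks as a term (squares) lie between -0.30 and 0.31.

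Fos encodes a subunit of the AP-1 transcription factor and is the most widely used marker of recently active neurons. Its log2 level ran from 11.11 through a median of 12.12 to 12.63 in medium clozapine, against 8.46, 10.07 and 11.93 in vehicle. A single vehicle array, at 11.93, lay within the medium range, and the other 8 vehicle arrays reached no more than 10.95. Fos rose by 2.02 ± 0.39 (log2 ± SE, limma, adjusted p = 0.0113), about 4.05-fold in intensity, with 9 of 9 medium arrays above the vehicle mean. The 95% interval of the difference was 1.24 to 2.79, and within blocks 1, 2 and 3 it was 1.34, 2.88 and 1.94. Vehicle arrays were spread more widely for Fos (SD 1.15, n = 9) than medium clozapine arrays (SD 0.49, n = 9). The call for Fos ended without vehicle replicate 1 (1.87, adjusted p = 0.0530) and without vehicle replicate 5 (1.83, adjusted p = 0.0598), the lowest vehicle arrays for Fos, and with the 18 arrays fitted alone (adjusted p = 0.0935). Over all alternatives the adjusted p of Fos ran from 0.00138 to 1.0.

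Arc, an activity-regulated protein that binds the endocytic machinery at synapses and promotes removal of AMPA receptors, was called as well. Medium clozapine arrays had log2 levels of 10.84 at the lowest, 12.42 at the median and 13.54 at the highest, against 10.28, 10.77 and 11.85 in vehicle. A medium array in block 1 lay at 10.84, well within the vehicle range. The lowest of the other 8, at 11.852, was just below the highest vehicle array, at 11.855. Arc rose by 1.46 ± 0.27 (log2 ± SE, limma, adjusted p = 0.00993), 2.76-fold, in 8 of 9 arrays, and by 0.63, 2.63 and 1.33 within blocks 1, 2 and 3. With the 18 arrays fitted alone the call for Arc ended (adjusted p = 0.111 by limma, or 0.179 with blocks). The block 2 medium arrays were the brightest of all, at 13.54 and 13.21.

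**Figure D2:**
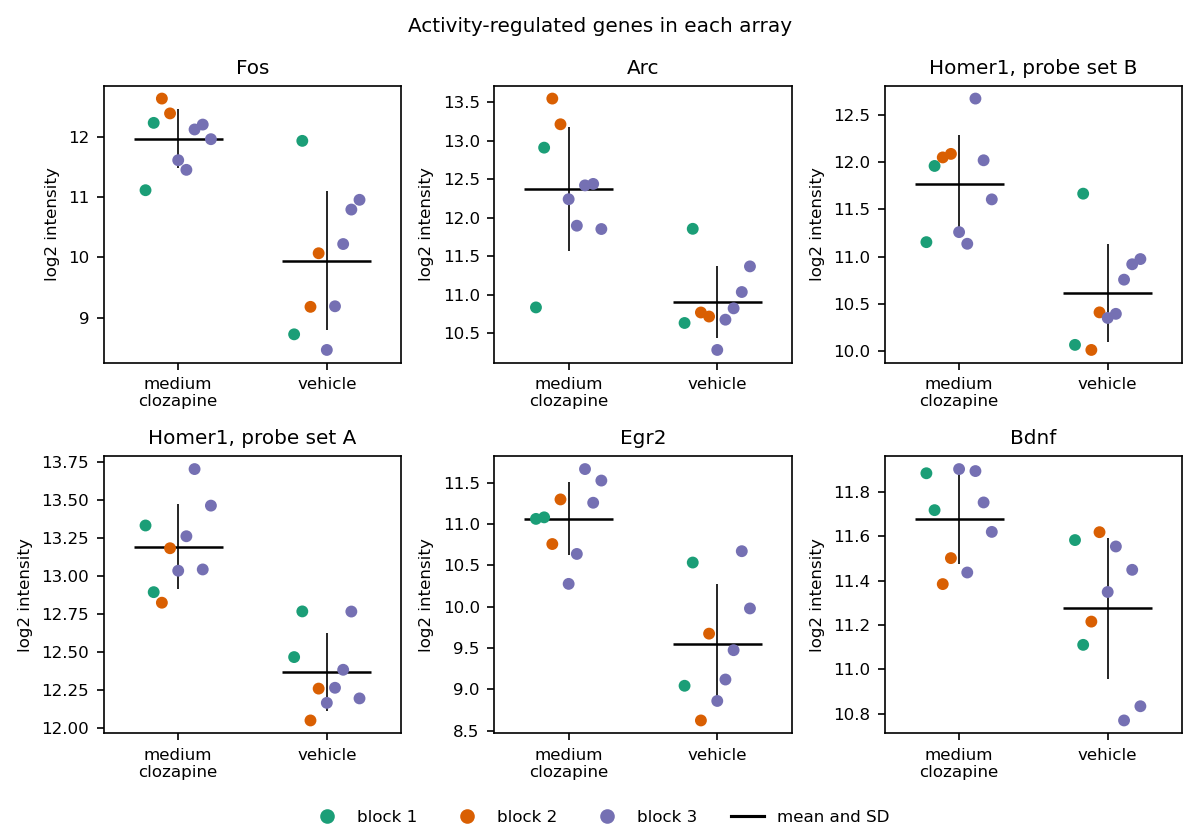
Log2 intensity of 6 probe sets in each medium clozapine array (left) and vehicle array (right), with 1 point per array coloured by block and bars for the mean and SD (n = 9 each). Homer1 on probe set A shows no overlap between the groups, and a single vehicle array, of block 1, reaches into the medium clozapine range for Fos and for Homer1 on probe set B.

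Homer1 proteins tether metabotropic glutamate receptors to the postsynaptic density, and neuronal activity is known to induce a short transcript, Homer1a, whose product competes with the constitutive long forms. The array carried 5 Homer1 probe sets, and the files do not say which transcript each reads. On probe set A medium clozapine arrays ran from 12.82 through 13.18 to 13.70, against 12.05, 12.26 and 12.77 in vehicle, with no overlap. The difference there was 0.83 ± 0.15 (log2 ± SE, limma, adjusted p = 0.00993), and it was 0.50, 0.85 and 0.95 within blocks 1, 2 and 3. Of all probe sets tested 0.0107% had every medium array above every vehicle array, this probe set and that of Egr4, and 0.00537% the reverse, a probe set without a gene name.

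On probe set B the log2 levels were 11.14, 11.96 and 12.68 at the lowest, median and highest medium clozapine array, against 10.01, 10.41 and 11.67 in vehicle. It rose by 1.16 ± 0.21 (limma, adjusted p = 0.00993) in 9 of 9 arrays, with 0.69, 1.86 and 1.06 within the blocks. With the 18 arrays fitted alone the call for B ended (adjusted p = 0.111, or 0.195 with blocks), and that for A held (0.0206, or 0.0245 with blocks). The remaining Homer1 probe sets were not called. They differed by 0.25 ± 0.10, 0.14 ± 0.069 (the brightest of the 5) and 0.12 ± 0.10 (the dimmest of these 3), with an adjusted p of 0.983 for each. The highest vehicle values for Fos, Arc and both called Homer1 probe sets came from a single array, vehicle replicate 2, and without it the differences were 2.27 for Fos, 1.58 for Arc, 1.29 for Homer1 on B and 0.88 on A.

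The Homer1 promoter, from RefSeq in its GRCr8 assembly, is shown as the 250 bases before the gene's start (chr2:26278762-26279011, plus strand). Capitals in this and the following sequences would mark a CArG box or the CRE core TGACG on either strand, and Homer1 has neither in this window.
Homer1: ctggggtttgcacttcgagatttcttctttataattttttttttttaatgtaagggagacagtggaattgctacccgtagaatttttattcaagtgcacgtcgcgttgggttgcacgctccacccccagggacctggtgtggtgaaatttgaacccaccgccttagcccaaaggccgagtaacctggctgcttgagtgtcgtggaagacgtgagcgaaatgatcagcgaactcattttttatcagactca

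Among transcription factors induced by activity, 13 of the 18 measured members were bright enough to be tested, 12 were higher in medium clozapine and 1 was lower, with a median difference of 0.45. Only Fos was called, against 0.0215% of all probe sets. At an unadjusted p under 0.05 were 9 higher and 1 lower, where 2.05% and 2.01% of all probe sets were. Over all 10128 genes tested, each by its brightest probe set, 51.3% were higher and the median was 0.0029. The mean of the 13 members, each centred on its own average, ran from -0.0045 through 0.42 to 0.58 in medium clozapine arrays, against -0.64, -0.22 and 0.27 in vehicle arrays. All 9 medium arrays stood above the vehicle mean, and the lowest of them was the block 1 array that was also lowest for Arc and Fos. The list was drawn up with earlier results of these arrays known, so its direction is not independent of them. Fosb, Fosl2, Egr3, Atf3 and Maff were measured but too dim to be tested.

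The Egr genes encode zinc finger factors. Egr2 had log2 levels of 10.28, 11.08 and 11.67 at the lowest, median and highest medium clozapine array, against 8.62, 9.48 and 10.67 in vehicle. Its difference of 1.51 ± 0.35 was the second largest of the list, 2.85-fold, but missed the threshold (limma, adjusted p = 0.107, or 0.0870 with blocks as a term). A second, dimmer Egr2 probe set that the filter removed differed by 2.06, and it was called when no filter was applied. Egr4 ran from 11.14 through 11.22 to 11.58 in medium clozapine, against 10.39, 10.83 and 11.13 in vehicle, so the groups did not overlap, by a difference of 0.41 ± 0.12 (adjusted p = 0.534). Egr1 was at 0.60 ± 0.18 (adjusted p = 0.716), with 0.60, 0.51 and 0.64 within the blocks.

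Egr2 and Egr4 promoters are given because these factors had the widest gap from vehicle after Fos (Egr2) and no overlap between groups (Egr4). Capitals mark a CArG box in Egr2 and the CRE core in both, and on the strand shown each core reads as its reverse complement, CGTCA. The Egr2 window is chr20:21054442-21054691 and the Egr4 window chr4:119607818-119608067, both in GRCr8 and on the minus strand.
Egr2: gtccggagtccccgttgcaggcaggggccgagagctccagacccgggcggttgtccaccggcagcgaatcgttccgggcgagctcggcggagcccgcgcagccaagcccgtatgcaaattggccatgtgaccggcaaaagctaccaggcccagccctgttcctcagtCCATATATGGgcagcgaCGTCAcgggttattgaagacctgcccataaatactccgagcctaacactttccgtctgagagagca
Egr4: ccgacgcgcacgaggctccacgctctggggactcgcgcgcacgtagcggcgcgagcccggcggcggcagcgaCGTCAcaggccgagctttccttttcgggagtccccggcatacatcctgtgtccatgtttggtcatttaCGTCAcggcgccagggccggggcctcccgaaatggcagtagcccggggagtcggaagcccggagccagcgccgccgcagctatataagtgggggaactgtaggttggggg

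Egr2 holds 1 CArG box and 1 CRE core, and Egr4 holds 2 cores and no CArG box. Over 33469 RefSeq rat promoters of the same length, 1.5% hold a CArG box, 18.2% the CRE core TGACG and 1.59% the full element TGACGTCA, which contains the core and occurs in neither. These matches describe letters and not bound sites. No promoter sequence was available for Fos, Arc or Pdp1. The windows of Lsm11, Stt3b, Nr1d2, Dbp, Rab3gap2 and Gne, scanned as well, held neither motif. Those of Egr1, Junb and Nr4a1 held the CRE core, that of Egr1 with CArG boxes as well.

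Nr4a1, an orphan nuclear receptor, was at 12.43 ± 0.57 in medium clozapine and 11.66 ± 0.38 in vehicle (SD, n = 9 each), a difference of 0.77 ± 0.21 (SE, limma, adjusted p = 0.534). Junb, an AP-1 subunit, differed by 0.68 ± 0.19 with the same adjusted p. For both the block 2 difference was the largest, 1.36 for Nr4a1 and 1.30 for Junb, against 0.47 and 0.22 in block 1. Nr4a3 (0.47 ± 0.15), Ier2 (0.45 ± 0.16) and Ier5 (0.24 ± 0.098) were also higher without passing. Jun, which encodes the partner of Fos in AP-1, was the single lower member, at -0.13 ± 0.065 on its brightest probe set but 0.14 ± 0.10 on its dimmest, and Nr4a2, Per1 and Klf4 lay within 1 SE of 0. Members near 0 thus stood beside Fos and Egr2 in the same list.

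Of activity-induced effectors, 16 of 18 measured were tested, 13 higher and 3 lower, with a median of 0.13 and 1 call, Arc, where 51.3% of all genes were higher and 0.0215% of all probe sets were called. Bdnf, a neurotrophin that supports synaptic growth, had levels of 11.38, 11.72 and 11.90 at the lowest, median and highest medium array, against 10.77, 11.35 and 11.62 in vehicle. It differed by 0.40 ± 0.12 in 9 of 9 arrays (limma, adjusted p = 0.802), with 0.45, 0.026 and 0.53 within blocks, so block 2, with the widest Fos and Arc differences, showed almost none for Bdnf. Rgs2, which shortens Gq signalling, was at 0.15 ± 0.060 in 9 of 9 arrays on its brighter probe set and at -0.025 on the other. Several classical members were close to 0, among them the cyclooxygenase Ptgs2 (0.025 ± 0.23), the granin Vgf (-0.0094 ± 0.13), Rgs4 (0.0084 ± 0.060) and Crem (0.012 ± 0.11). Plk2, a kinase that acts on spines, was at -0.064 ± 0.074.

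Feedback genes of the MAP kinase pathway were higher in 8 of 11 tested, with a median of 0.14 and 0 called, where 51.3% of all genes were higher and 0.0215% of all probe sets were called. At an unadjusted p under 0.05 were 4 higher and 0 lower, where 2.05% and 2.01% of all probe sets were. Dusp6, a phosphatase that inactivates ERK in the cytoplasm, had levels of 12.98, 13.48 and 13.65 in medium clozapine, against 12.66, 13.01 and 13.40 in vehicle (lowest, median and highest array). The difference was 0.43 ± 0.098 (limma, adjusted p = 0.107), and Dusp6 was called with array weights at 0.44. Dusp5, which acts on ERK in the nucleus, ran from 9.36 through 9.96 to 10.03 in medium clozapine, against 8.96, 9.28 and 9.50 in vehicle. It differed by 0.55 ± 0.14 in 9 of 9 arrays (adjusted p = 0.266, or 0.0601 with blocks as a term) and by 0.43, 0.79 and 0.50 within blocks. The Ets factor Etv5 (0.24 ± 0.094) and the ERK pathway inhibitor Spry4 (0.28 ± 0.14) were higher in 8 of 9 arrays each. Dusp1, which is both an immediate early gene and responsive to glucocorticoids, was at 0.31 ± 0.17 on its brighter probe set and at 0.59 on its dimmer one.

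Between Dusp6 and Dusp5, the Dusp6 promoter window holds neither a CArG box nor a CRE core. That of Dusp5 is shown because it holds motifs, 2 adjoining CArG boxes and 1 CRE core (chr1:262543524-262543773, plus strand, GRCr8), all in capitals.
Dusp5: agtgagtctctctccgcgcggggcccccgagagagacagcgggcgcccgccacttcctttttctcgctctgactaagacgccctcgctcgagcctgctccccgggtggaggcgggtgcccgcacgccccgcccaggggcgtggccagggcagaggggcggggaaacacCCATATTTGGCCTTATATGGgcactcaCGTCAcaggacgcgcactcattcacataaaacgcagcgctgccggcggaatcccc

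Relations between the genes were examined across arrays within each group, for 12 pairs of gene and group, with exact two-sided permutation tests over 9 arrays and Benjamini-Hochberg adjustment over the 12. Fos and Arc varied together in medium clozapine (Pearson r = 0.92, permutation p = 0.000430, adjusted 0.00216, Spearman rho = 0.95, permutation p = 0.000353, adjusted 0.00212) and in vehicle (r = 0.93, permutation p = 3.58e-05, adjusted 0.000430, rho = 0.95, permutation p = 0.000353, adjusted 0.00212). Without the 2 arrays farthest from the median of Arc, r was 0.78 in medium clozapine and 0.86 in vehicle, and within the 5 arrays of block 3 it was 0.60 and 0.95. Fos and Homer1 (probe set B) gave r = 0.79 in medium clozapine (permutation p = 0.0107, adjusted 0.0183, rho = 0.78, permutation p = 0.0172, adjusted 0.0295) and r = 0.92 in vehicle (permutation p = 0.000540, adjusted 0.00216, rho = 0.93, permutation p = 0.000750, adjusted 0.00300). Without the 2 farthest arrays these were 0.59 and 0.93.

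Egr2 was set against Fos in the same way. Fos and Egr2 gave r = 0.31 in medium clozapine (permutation p = 0.414, adjusted 0.452, rho = 0.28, permutation p = 0.463, adjusted 0.505) and r = 0.90 in vehicle (permutation p = 0.00117, adjusted 0.00350, rho = 0.88, permutation p = 0.00308, adjusted 0.00738). Without the 2 farthest arrays r was 0.25 and 0.86, and within block 3 it was 0.83 and 0.88. For the pairs without Fos in medium clozapine, Arc and Egr2 gave r = -0.015 (permutation p = 0.970, adjusted 0.970). Arc and Homer1 on B gave r = 0.64 (permutation p = 0.0620, adjusted 0.0759) and rho = 0.72 (permutation p = 0.0369, adjusted 0.0492). Egr2 and Homer1 on B gave r = 0.64 (permutation p = 0.0632, adjusted 0.0759). In vehicle these pairs gave r = 0.77, 0.87 and 0.86 (permutation tests, adjusted p = 0.0202, 0.00558 and 0.00456). The difference between the groups' correlations was not tested. Vehicle replicate 2 was the highest vehicle array for Fos, Arc and Homer1, and vehicle replicate 8 for Egr2.

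Medium clozapine was set against the other clozapine levels and against haloperidol at the level of the same name, where amounts may differ. In each of these comparisons 0 of 18625 probe sets were called (0% of those tested, limma), with or without blocks as a term. Counts at an unadjusted p under 0.05 were 725 (3.89%) against low clozapine, 427 (2.29%) against high clozapine, 518 (2.78%) against the mean of both and 1166 (6.26%) against medium haloperidol. Medium haloperidol had 3, 4, 0 and 2 arrays in blocks 1 to 4, and no haloperidol array fell in block 3, which held 5 of the 9 medium clozapine arrays. With blocks as a term the count against medium haloperidol was 816, and the median difference of all probe sets was 0.0015, against 0.010 without. The other counts rose with blocks as a term, to 1086 against low clozapine, 611 against high clozapine and 744 against the mean of both. A difference of the medium level from its neighbours was thus not detected for any probe set, which does not show that they were alike.

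The 4 called probe sets were chosen because the medium clozapine arrays were high against vehicle, which also favours high values of the same arrays against any other group, so their values beside the other groups are a description. Fos averaged 10.84 ± 0.86 at low (n = 10), 11.97 ± 0.49 at medium (n = 9) and 10.43 ± 0.73 at high clozapine (SD, n = 8), and 10.65 ± 1.03, 11.23 ± 0.52 and 10.82 ± 0.91 at low, medium and high haloperidol (SD, n = 9 each), with vehicle at 9.95 ± 1.15 (SD, n = 9). For Fos medium clozapine was higher than low by 1.13 ± 0.38 (95% interval 0.37 to 1.88), than high by 1.54 ± 0.40 (0.74 to 2.34) and than medium haloperidol by 0.74 ± 0.39 (-0.036 to 1.51), or 0.87 ± 0.42 with blocks as a term. Arc was higher at medium clozapine by 0.94 ± 0.27 than at low, by 0.92 ± 0.28 than at high and by 0.62 ± 0.27 than with medium haloperidol, or 0.80 ± 0.29 with blocks. Egr2 was also higher at medium clozapine, by 0.83 ± 0.34, 1.31 ± 0.36 and 0.57 ± 0.35.

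Homer1 on probe set A had its highest mean with high haloperidol. It averaged 12.96, 13.19 and 12.88 at low, medium and high clozapine and 12.81, 13.20 and 13.27 at low, medium and high haloperidol, with vehicle at 12.37. Its medium clozapine minus medium haloperidol difference was -0.0092 ± 0.15 (95% interval -0.31 to 0.30), or 0.056 ± 0.17 with blocks as a term. On probe set B the same difference was 0.48 ± 0.21 (0.068 to 0.90). Bdnf at medium clozapine differed from low clozapine by 0.032 ± 0.12, with an interval of -0.21 to 0.27 (-0.0081 with blocks), and Egr1 differed from medium haloperidol by -0.045 ± 0.18 (-0.40 to 0.31), or 0.058 ± 0.19 with blocks. Every group in this experiment was set against the same 9 vehicle arrays, so the differences from vehicle are shown side by side and not compared.

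**Figure D3:**
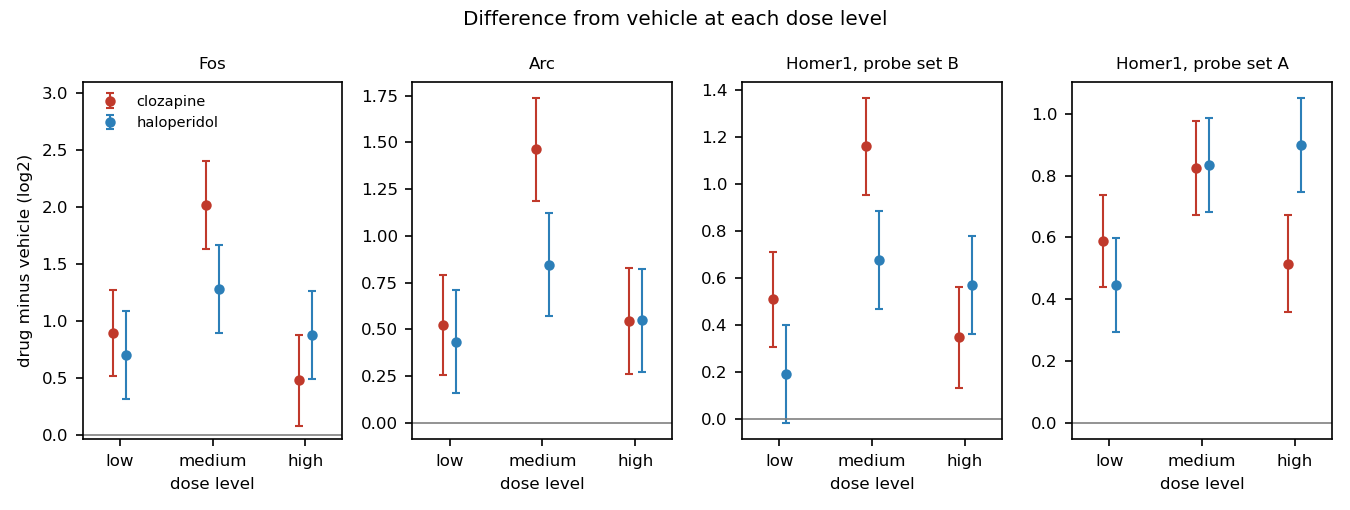
Log2 difference from vehicle (points, with bars of 1 SE from limma) at the low, medium and high level of clozapine and of haloperidol for the 4 called probe sets, all against the same 9 vehicle arrays. Fos is at 0.89, 2.02 and 0.48 with clozapine and at 0.70, 1.28 and 0.88 with haloperidol, and Homer1 on probe set A is at 0.83 with both drugs at the medium level.

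The named genes with the smallest p against low clozapine were Ly86, an immune accessory protein of macrophage lineage cells, at 0.52 ± 0.10 (adjusted p = 0.0764), and Ctps1, which makes cytidine triphosphate, at -0.26 ± 0.064 (adjusted p = 0.603). Against high clozapine, beside Fos, Homer1 and Egr2, they were the matricellular growth factor Ccn2 at -0.43 ± 0.10 and the MHC class II invariant chain Cd74 at 0.46 ± 0.13, each with an adjusted p of 1.0. Against medium haloperidol Pdcd6, a calcium-binding protein, was at 0.17 ± 0.044 and Sptssb, a serine palmitoyltransferase subunit, at -0.63 ± 0.17, both with an adjusted p of 0.719 by limma. With blocks as a term they were at 0.12 ± 0.044 and -0.52 ± 0.18, with unadjusted p of 0.00769 and 0.00519 by limma.

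The genes called once blocks were a term differed by less than the 4 above. Pdp1, Stt3b and Lsm11 were also called with the top 40% of probe sets tested and with array weights, and Pdp1 and Stt3b on values as deposited. Pdp1, the phosphatase that activates pyruvate dehydrogenase, had levels of 13.31, 13.66 and 13.83 in medium clozapine, against 13.24, 13.34 and 13.40 in vehicle (lowest, median and highest array). It differed by 0.31 ± 0.066 (limma, adjusted p = 0.0677 without and 0.0471 with blocks), and by 0.43, 0.095 and 0.34 within them. Stt3b, a catalytic subunit of oligosaccharyltransferase, differed by 0.27 ± 0.059 on its dimmer probe set (adjusted p = 0.0677 and 0.0471) and by 0.051 on its brighter one. Lsm11, a component of the U7 particle that processes histone transcripts, was at 0.27 ± 0.058 (adjusted p = 0.0677 and 0.0441), alike in the blocks at 0.26, 0.28 and 0.26, and its dimmer probe set was at 0.027.

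Other genes with small p that were not called include Rab3gap2, a regulator of Rab GTPases (0.34 ± 0.082), Gne, the key enzyme of sialic acid synthesis (0.37 ± 0.093), Rin2, a Rab5 exchange factor (0.44 ± 0.11), Camk1g, a calmodulin-dependent kinase (0.36 ± 0.094), and the kinase Jak2 (0.30 ± 0.080). All 5 were higher in 9 of 9 medium arrays, and their adjusted p ran from 0.179 to 0.386. Rin2 was named by its dimmer probe set, and its brighter one was at 0.083. On the lower side were Neurod2, a transcription factor of cortical projection neurons (-0.43 ± 0.12), Tnik, a postsynaptic kinase (-0.21 ± 0.060), Trappc6b, a vesicle tethering subunit (-0.30 ± 0.089), Cnot4, a ubiquitin ligase of the Ccr4-Not complex (-0.30 ± 0.091), and Entpd3, an ectonucleotidase (-0.23 ± 0.070). Neurod2 ran from 10.57 through 10.84 to 11.14 in medium clozapine, against 10.90, 11.26 and 11.59 in vehicle, and was below the vehicle mean in 9 of 9 arrays (adjusted p = 0.617). Within blocks it was at -0.38, -0.84 and -0.28. Neurod2 was the lowest member of the list of cortical projection neuron markers. Of the 16 tested in that list, 10 were higher and 6 lower, with a median of 0.040. Supt3h (-0.21), Dgkg (-0.28), Zfp446 (-0.29) and St3gal2 (-0.21) followed, with adjusted p between 0.894 and 0.916. Dimmer probe sets of Tnik (-0.037 to 0.066), Supt3h (0.027) and Dgkg (0.039) lay near 0.

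Clock genes are expressed in rhythm through the day in cortex, and the labels give no time of day. Of 17 tested 9 were higher and 8 lower, with a median of 0.064, where 51.3% of all genes were higher. By their brightest probe sets 0 were called, with or without blocks as a term. Of all probe sets 0.0215% were called without blocks and 0.043% with them. Nr1d2, a nuclear receptor that represses Bmal1, ran from 12.38 through 12.60 to 12.94 on a probe set named A here in medium clozapine, against 12.75, 12.86 and 13.07 in vehicle. It fell by 0.30 ± 0.056 with blocks as a term (limma, adjusted p = 0.00745), a change not called without it (adjusted p = 0.266), and was at -0.40, -0.33 and -0.25 within the blocks. The other Nr1d2 probe sets were at -0.24 ± 0.072 (B, the brightest, limma, adjusted p = 0.788) and -0.12 (the dimmest, adjusted p = 0.983). Neither was called in any alternative, where their lowest adjusted p by limma was 0.106 for B and 0.518 for the dimmest. Dbp, an output gene of the clock, was below the vehicle mean in 9 of 9 arrays, at -0.29 ± 0.095 (adjusted p = 0.916, or 0.0922 with blocks), and Bhlhe41 was at -0.20 ± 0.075.

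Bmal1, which drives the transcription of Nr1d2 and Dbp, had the opposite sign at 0.23 ± 0.080 in 9 of 9 arrays (adjusted p = 0.983), with 0.16, -0.029 and 0.36 within blocks. Nr1d1 was at -0.23 ± 0.12, Per3 at -0.15 ± 0.16, Per2 at 0.097 ± 0.13, Per1 at 0.12 ± 0.26 and Clock at 0.14 ± 0.088. The Nr1d2 level of block 3 was higher than that of blocks 1 and 2 in both groups.

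**Figure D4:**
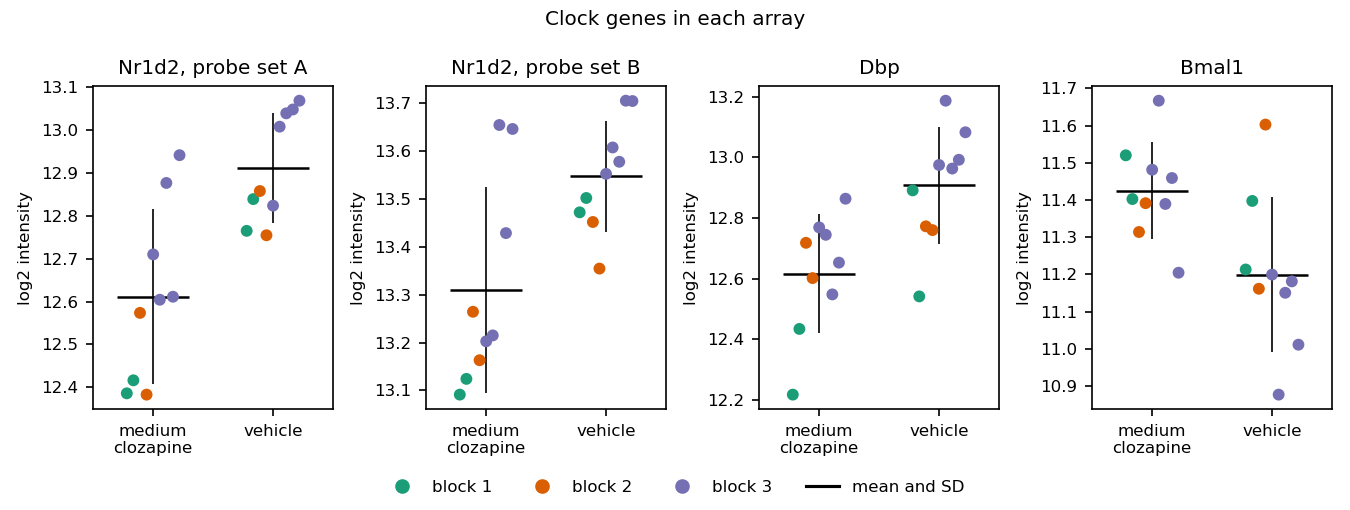
Log2 intensity of 4 clock gene probe sets in each medium clozapine array (left) and vehicle array (right), with 1 point per array coloured by block and bars for the mean and SD (n = 9 each). Nr1d2 and Dbp lie lower in medium clozapine within blocks (Nr1d2 on probe set A by -0.40, -0.33 and -0.25), and Bmal1 lies higher on average by 0.23.

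Receptors that clozapine binds were not among the called genes, where 0.0215% of all probe sets were called. Serotonin receptors were lower in 5 of 5 tested, with a median of -0.11, from Htr1a at -0.22 ± 0.14 to Htr2a at -0.026 ± 0.13. Of them 0 had an unadjusted p under 0.05 by limma, where 4.06% of all probe sets did. With so few receptors tested, counts of 0 do not set them apart. Htr2a changed sign when single arrays or block 2 were left out, and a dimmer probe set of Htr2c was at 0.022, so the shared direction holds for the brightest probe sets in the full fit. Serotonin receptors Htr1b, Htr1d, Htr1f, Htr2b, Htr3a, Htr4, Htr5b and Htr6 were too dim to be tested. Dopamine receptors Drd1 (0.14 ± 0.14, -0.061 on a second probe set) and Drd2 (0.15 ± 0.15) lay near 1 SE of 0, and Drd3, Drd4 and Drd5 were too dim.

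Adrenergic receptors ran from -0.044 ± 0.13 (Adra2c) to 0.14 ± 0.17 (Adra1b), with 4 of 5 higher. Muscarinic receptors Chrm1 (0.022 ± 0.19), Chrm3 (0.11 ± 0.11) and Chrm4 (0.18 ± 0.20) lay within about 1 SE of 0. The histamine autoreceptor Hrh3 was at -0.23 ± 0.12 on its brighter probe set and -0.014 on the other, and Hrh1 was at 0.14 ± 0.089. Striatal markers were higher in 9 of 11 with a median of 0.073, where 51.3% of all genes were higher. Of them 0 were called, where 0.0215% of all probe sets were.

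Of the 33 lists, those of basic cell machinery had medians close to 0. Heat shock and unfolded protein genes were higher in 19 of 23 tested with a median of 0.057, among them the ER chaperone Hsp90b1 (0.19 ± 0.080) and the ER co-chaperone Dnajc3 (0.21 ± 0.099). Cytosolic ribosomal proteins were higher in 32 of 39 (median 0.039), respiratory chain subunits in 56 of 74 (0.022) and proteasome subunits in 25 of 36 (0.037), and each of these 4 lists had 0 called. The ribosomal member with the smallest p was Rps9 at 0.15 ± 0.058. Over all 10128 genes tested 51.3% were higher, and 0.0215% of all probe sets were called. The mean of the heat shock members was above the vehicle mean in 9 of 9 medium arrays. That of the ribosomal members was above it in 8 of 9, and those of the respiratory chain and proteasome in 6 of 9 each. No list was tested as a set. On the values as deposited, the ribosomal median was 0.097 and the respiratory chain median 0.056, while the median of all probe sets was -0.0037.

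Among synaptic lists, medians lay close to 0 for postsynaptic scaffolds (0.041, 13 of 20 higher), presynaptic release (-0.013, 8 of 19 higher) and AMPA and kainate subunits (0.020, 6 of 8 higher). NMDA receptor subunits had a median of 0.099 (5 of 5 higher). Gria4, an AMPA receptor subunit, was at -0.21 ± 0.11, with -0.79 in block 2. Potassium channels were lower in 15 of 23, with Kcns2, a silent modifier subunit, at 0.40 ± 0.16 in the other direction. Glucocorticoid-responsive genes were lower in 8 of 14 (median -0.0028), including Sult1a1 (-0.26 ± 0.10) and Tsc22d3 (-0.23 ± 0.10). The other 6 were higher, with Dusp1 the highest at 0.31 ± 0.17.

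**Figure D5:**
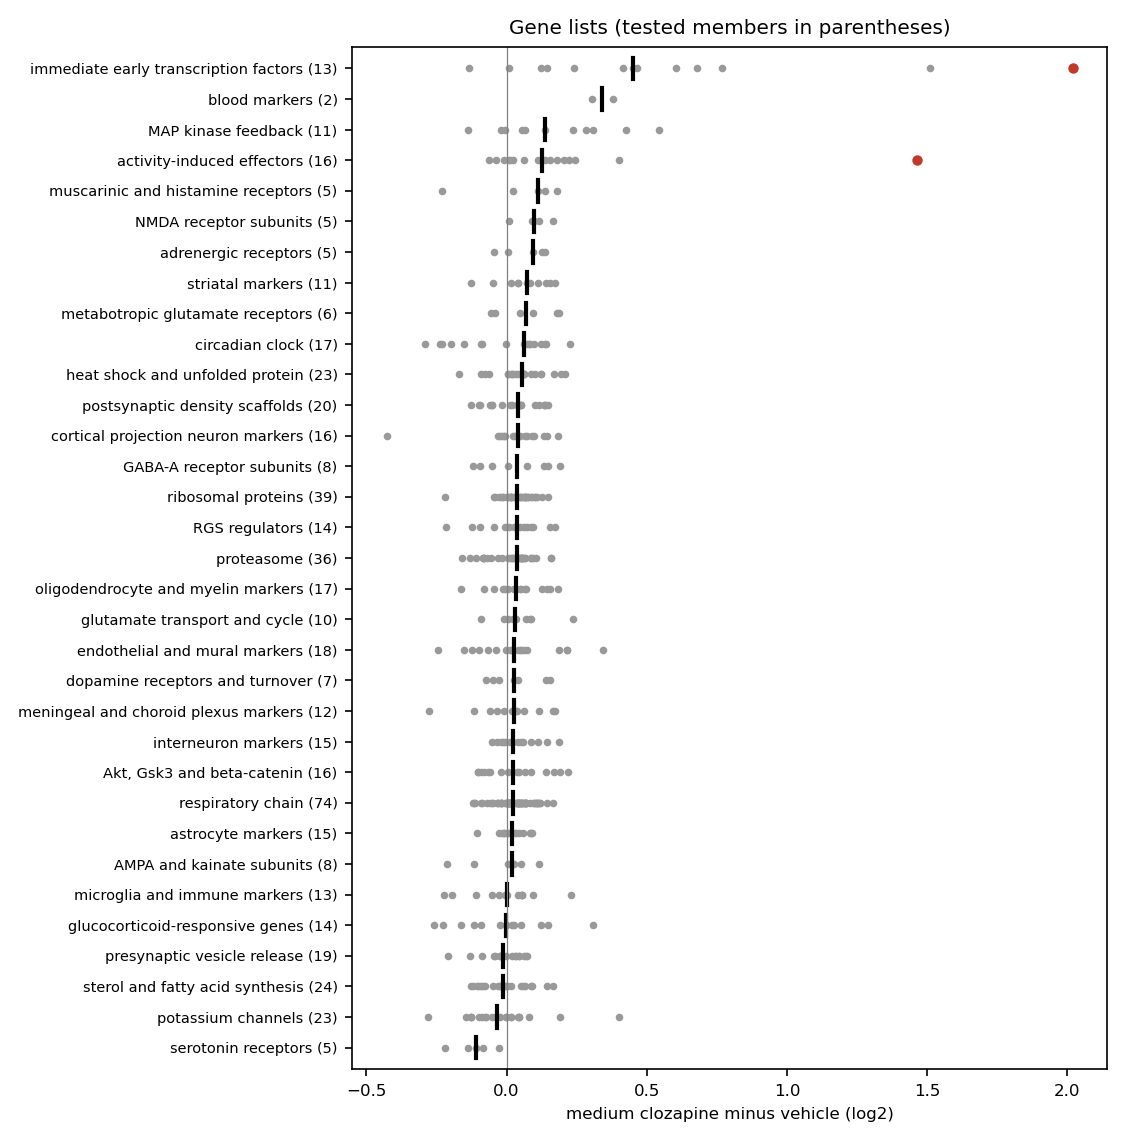
Log2 difference of medium clozapine minus vehicle for each tested member (points) and the median (bar) of each of 33 gene lists, with the number tested in parentheses and called members in red. Immediate early transcription factors have the highest median, 0.45, and serotonin receptors the lowest, -0.11.

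Markers of other cell types had medians close to 0. They were 0.033 for oligodendrocyte and myelin markers (12 of 17 higher), 0.021 for astrocyte markers (10 of 15 higher), 6.03e-06 for microglia and immune markers (7 of 13 higher), 0.028 for endothelial and mural markers (11 of 18 higher) and 0.027 for meningeal and choroid plexus markers (7 of 12 higher), with 0 called in each. Over all genes tested 51.3% were higher, and 0.0215% of all probe sets were called, so counts of 0 do not set these lists apart. In bulk tissue, fewer cells of a type and less RNA per cell cannot be told apart. Blood markers were higher beside the immediate early genes, though not called. Of 3 measured, both tested were higher, Hbb at 0.38 ± 0.24 in 8 of 9 arrays and Alas2 at 0.30 ± 0.29 in 7 of 9. Their mean level, centred as above, was -0.20 to 1.07 in medium clozapine arrays and -0.44 to 0.14 in vehicle arrays. Hbb ran from 15.11 to 16.31 in medium clozapine, against 14.96 to 15.55 in vehicle, and its part in the other results was not tested.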

How the data were processed

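The authors deposited linear-scale intensities, 1 for each probe set of an array. Every array of the comparison had a 2% trimmed mean of 2500.7 to 2500.75, and how the values were summarised, and by which software, is not stated in the labels or file headers. Intensities of the 63 arrays of the neuroleptic experiment were quantile normalised, floored at 32 and taken to log2, and the 60% of probe sets with the highest mean, 18625 of 31042, were tested. Groups came from the array descriptions. limma 3.58.1 in R 4.3.3 was fitted with 7 groups sharing 1 residual spread and no covariate, and p-values were adjusted by Benjamini-Hochberg over all probe sets tested, with calls at 0.05. Gene symbols came from the platform annotation: 20826 probe sets had 1 symbol, 436 several and 9780 none. A gene is represented by its brightest probe set. Named genes were those called with or without blocks, the top 10 by p on either side, up to 4 members of each list by p, fixed immediate early genes and the drugs' receptors, and up to 5 in each direction against other drug groups. The members, lists and tests were chosen with earlier results of these data known. Alternatives changed the normalisation, floor, filter, arrays fitted, array weights and blocks. Precision is limited by the number of arrays, 9 in each group.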

Additional observations from a re-analysis of the deposited data

Results flagged for a closer look

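In 7 of 104 groups of 9 arrays, 1 array stood far from the rest, and chance flags about 1 in 20 groups. In medium clozapine, Stt3b had, on its dimmer probe set, a lowest array of 11.59 against a next value of 11.77, Lsm11 a highest of 12.06 against 11.76, Etv5 a lowest of 11.01 against 11.28, and Dgkg a highest of 12.11 against 11.82. In vehicle, Lsm11 had a highest array of 11.72 against 11.48, Spry4 a lowest of 9.51 against 10.07, and Tnik a lowest of 12.35 against 12.54. All are log2 levels.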

How the results depend on the processing

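The count of 4 called probe sets became 8 with blocks as a term, 7 with the top 40% of probe sets tested and 10 with array weights. It was 1 with the 18 arrays fitted alone and 1 with blocks as a term in those 18 (Homer1 on probe set A both times). The count was 5 without block 1, 0 without block 2 and 0 without block 3. Blocks 1 and 2 each hold 2 medium clozapine and 2 vehicle arrays, and why these counts differ was not tested. On values as deposited the count was 6, with a floor of 128 it was 4, with no filter 5, and with each replicate left out in turn 3 to 6. Fitted alone, Fos had an adjusted p of 0.0935, and Arc and Homer1 on probe set B 0.111. Of 52 probe sets followed, Htr2a turned sign without vehicle replicate 3 (0.0192) or 4 (0.00089), without clozapine medium replicate 3 (0.0156), 4 (0.0261) or 8 (0.0069), and without block 2 (0.164), with a range of -0.121 to 0.0261 over arrays left out, and Drd1 without block 3 (-0.0558). The cause was not tested. List medians that moved beyond the replicate spread were MAP kinase feedback (0.271 without block 3), potassium channels (-0.093 without block 3), the clock (-0.0569 without block 2), and astrocyte markers (0.079) and ribosomal proteins (0.0969) as deposited. Median signs of the AMPA and kainate, postsynaptic, presynaptic, glucocorticoid, clock, dopamine, muscarinic and histamine, oligodendrocyte, astrocyte, microglia, endothelial and meningeal lists turned in at least 1 alternative, while those of the activity, MAP kinase, serotonin, NMDA, heat shock, ribosomal, respiratory, proteasome and blood lists did not. No paired analysis was possible because the labels give the groups no shared replicate numbers.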
